A study of Mus musculus with 4 samples.

Results

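Somatostatin (Sst) and its 5 receptors (Sstr1 to Sstr5) were described in mouse gallbladder cells that had been converted toward insulin-producing cells. They were found by gene symbol in the deposited expression table, which holds 20377 genes, and all 6 had a row. The only group, rGBC2, has 4 libraries (replicates 1 to 4). Its cells came from the gallbladders of MIP-GFP mice (B6.Cg-Tg(Ins1-EGFP)1Hara/J, C57BL/6 background, 8 weeks of age), in which an Ins1 promoter drives a green fluorescent protein. Every library came from cells that had received the transcription factors Pdx1, Ngn3 (Neurog3), Mafa and PAX6 and unnamed compounds during 10 days of reprogramming, and that were then sorted as reporter-positive. Since the reporter marks an active Ins1 promoter, the sort limits what is described here to such cells. The labels do not say which libraries share an animal or a culture, so p-values measure only the spread between these 4 libraries, part of which may be technical.

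Somatostatin is a peptide hormone of pancreatic delta cells, of endocrine cells of the gut and of some neurons, and it restrains the release of other hormones, among them insulin and glucagon. Its receptors are G protein-coupled receptors that act through inhibitory G proteins: they lower cyclic AMP, open inwardly rectifying potassium channels and dampen calcium channels. By sequence and pharmacology they fall into a pair (Sstr1 and Sstr4) and a trio (Sstr2, Sstr3 and Sstr5). In mouse islets, Sstr3 is known as a receptor of the primary cilium of beta cells, and Sstr2 as the main receptor of alpha cells.

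The end of the Sst coding sequence is shown because the hormone is cut from it: the last 28 codons encode somatostatin-28, and the last 14, in capitals, encode somatostatin-14. They lie on the minus strand at chr16:23889732-23889815 (GRCm38) in the second of the 2 exons of Sst. The 250 bases upstream of the Sst and Sstr2 starts (RefSeq, GRCm38.p6) are shown because both hold TGACGTCA, the cyclic AMP response element. Capitals mark that motif and, in Sst, TGATTGAT and TAATGG, letters of the sites at which Pbx and Prep1 proteins and Pdx1 are known, from the rat promoter, to act.
Sst, last 28 codons: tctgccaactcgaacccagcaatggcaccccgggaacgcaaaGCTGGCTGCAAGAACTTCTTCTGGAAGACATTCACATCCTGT
Sst upstream, chr16:23890845-23891094, minus strand: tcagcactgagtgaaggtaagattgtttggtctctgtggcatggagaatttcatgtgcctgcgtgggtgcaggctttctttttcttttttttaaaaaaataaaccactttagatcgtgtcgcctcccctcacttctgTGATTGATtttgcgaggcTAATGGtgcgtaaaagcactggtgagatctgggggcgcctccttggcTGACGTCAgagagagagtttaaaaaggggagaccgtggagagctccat
Sstr2 upstream, chr11:113619077-113619326, plus strand: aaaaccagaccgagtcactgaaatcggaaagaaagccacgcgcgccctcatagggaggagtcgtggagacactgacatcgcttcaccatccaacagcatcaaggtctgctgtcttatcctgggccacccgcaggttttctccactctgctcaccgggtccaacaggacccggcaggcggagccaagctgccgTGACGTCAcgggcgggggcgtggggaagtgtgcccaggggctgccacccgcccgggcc

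Upstream windows were at hand for 4 of the 6 genes (Sst, Sstr2, Sstr3 and Sstr4). Searched on both strands in 32851 windows of 250 bases, TGACGTCA was found in 1.55%, TGATTGAT in 0.67% and TAATGG in 6.57%. The motifs do not overlap each other. In Sst the cyclic AMP response element lies at -48 to -41 from the annotated start, TAATGG at -95 to -90 and TGATTGAT at -113 to -106, and in Sstr2 the cyclic AMP response element lies at -58 to -51. A match describes the letters only.

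The deposited values are RPKM, read counts scaled to transcript length and library size, and the estimated depth was 22.1 M to 33.2 M reads per library. At that depth 3 reads on a transcript of 1 kilobase are worth 0.0904 to 0.136 RPKM. Replicates 3 and 4 stood apart from replicates 1 and 2. Among genes with at least 10 RPKM in both libraries of a pair, the log2 ratio of replicate 3 to replicate 4 had an SD of 0.14, against 0.44 to 0.64 in the other 5 pairs. Replicates 3 and 4 too differed by more than sampling noise, with a mean of 13.5 and a median of 2.46 in chi-square per gene. Reads of Y-linked genes were found in replicates 1 and 2 alone, with 48.5 and 44.7 RPKM of Eif2s3y there and 0 in replicates 3 and 4. The split between libraries thus ran along a difference in the source cells as well, which the labels do not describe, and the part of that difference in the values below was not tested. By the test against 1 RPKM described below, 4 of 6 beta-cell markers, 2 of 5 alpha-cell markers and 4 of 5 gallbladder markers lay above that level. Of all genes tested, 65.0% did so, and Ins1, among the beta-cell markers, is the gene whose promoter drives the sorted reporter. The summed RPKM of the beta-cell, alpha-cell and gallbladder markers was 3427 to 10061, 107 to 951 and 731 to 1092. Nkx6-1, a defining beta-cell factor, stood at 0.02 RPKM, 0, 0 and 0.03 RPKM in replicates 1 to 4.

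Sst was among the most abundant transcripts of the sorted cells. Its row (mm9 chr16:23889667-23890930, minus strand) held 664, 460, 5573 and 6409 RPKM in replicates 1 to 4, so replicates 3 and 4 lay far above replicates 1 and 2. It ranked 50th and 122nd of all genes in replicates 1 and 2 and 3rd in both replicates 3 and 4, and it took 0.138%, 0.0877%, 0.997% and 1.10% of the summed RPKM. In bulk libraries, fewer somatostatin cells and less Sst RNA per cell cannot be told apart.

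**Figure D1:**
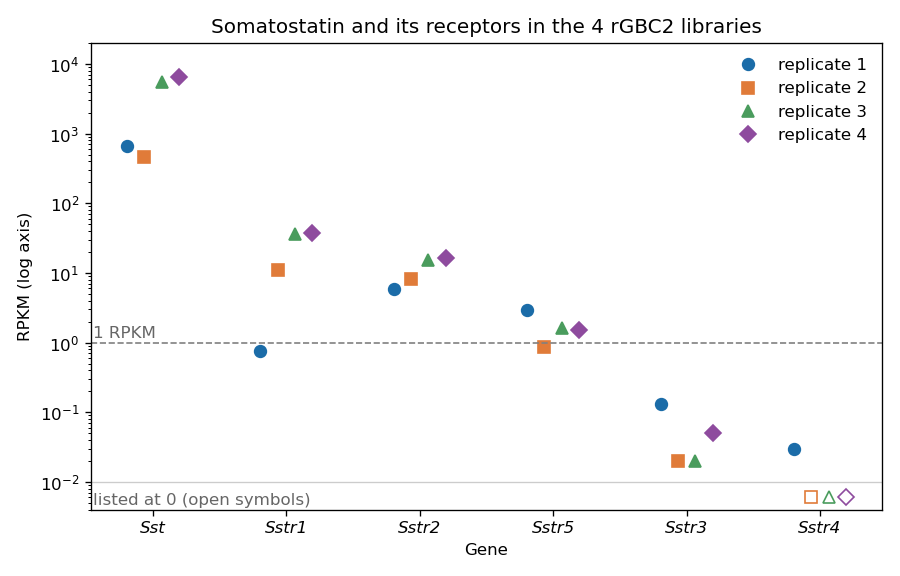
Level in RPKM (log axis) of somatostatin and its 5 receptors, with 1 symbol for each of the 4 rGBC2 libraries; open symbols stand for values listed at 0 and the dashed line for 1 RPKM. Sst spans 460 to 6409 RPKM, Sstr1 0.75 to 36.9 RPKM, and Sstr4 is listed at 0 in 3 libraries.

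With 1 group, the test across genes asked whether a gene lay above or below 1 RPKM (limma on log2(RPKM + 1), two-sided, Benjamini-Hochberg over 16919 genes). Of all genes tested, 65.0% lay above and 26.1% below. Of the 6 genes described here, 3 lay above (Sst, Sstr1 and Sstr2), 2 below (Sstr3 and Sstr4) and 1, Sstr5, in neither direction. Sst lay 9.83 ± 0.797 above it on the log2(RPKM + 1) scale (moderated SE, n = 4; limma, adjusted p = 6.01e-05).

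The spread of Sst over libraries was wide for its level. On the log2(RPKM + 1) scale its SD was 2.0, larger than that of each of the 15 genes within 2-fold of its mean, whose median SD was 0.46. Replicates 3 and 4 were both above replicates 1 and 2 for Sst, Sstr1 and Sstr2, a pattern that 24.2% of all genes tested showed. No gene of the 6 showed the reverse pattern, which 38.5% of genes tested did.

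Base composition and transcript length moved with the same split. Across 11842 genes with a mean of at least 1 RPKM, the difference of replicates 3 and 4 from replicates 1 and 2 had a Spearman correlation of 0.571 with GC content and -0.251 with length, across genes, which are not independent replicates. The difference was 3.43 for Sst on the log2(RPKM + 1) scale, against a median of 0.19 in 250 genes of like GC content (within 2 points) and length (within 1.5-fold). It was 3.03 for Sstr1, against 0.27 in 809 such genes, and 1.07 for Sstr2, against 0.17 in 1153. For Sstr2 the genes were matched to an annotated transcript of 2143 bases, not to the 1110 bases of its row. Beyond these values, the part of base composition and length in the split was not tested.

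Beside the hormones of other islet cells, Sst held no fixed place. Sst had 664, 460, 5573 and 6409 RPKM as above, against 1091, 3704, 3851 and 4240 RPKM of Ins2 in replicates 1 to 4, a ratio of 0.608, 0.124, 1.45 and 1.51. Sst minus Ins2 averaged -0.65 ± 1.68 on the log2(RPKM + 1) scale (SD, n = 4), a mean smaller than its SD, and Sst was higher in 2 of 4 libraries (exact sign-flip permutation test, two-sided, p = 0.625, also 0.625 after adjustment). Without replicate 2 the mean was 0.14. The smallest p that 4 libraries can give is 0.125, so none of the 4 hormone differences could pass 0.05.

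Ghrl, the ghrelin gene of epsilon cells, kept the most even distance from Sst. It stood at 29.8, 29.6, 349 and 400 RPKM in replicates 1 to 4, and the ratio of Sst to Ghrl was 22.2, 15.5, 16 and 16. Sst minus Ghrl averaged 4.08 ± 0.23 on the log2(RPKM + 1) scale (SD, n = 4), with Sst higher in 4 of 4 libraries (exact sign-flip permutation p = 0.125, 0.25 after adjustment over the 4 hormone differences).

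Gcg, the glucagon gene of alpha cells, followed another pattern, with 95.7, 942, 612 and 818 RPKM in replicates 1 to 4. The ratio of Sst to Gcg was 6.94, 0.489, 9.11 and 7.83, so that Gcg exceeded Sst in replicate 2 only. Sst minus Gcg averaged 1.98 ± 2.01 on the log2(RPKM + 1) scale (SD, n = 4; exact sign-flip permutation p = 0.25, adjusted 0.333). Ratios of Sst to Ins1 were 6.19, 2.07, 11.6 and 12.2, above 1 in every library, and the mean difference was 2.70 ± 1.19 on the log2(RPKM + 1) scale (SD, n = 4; exact sign-flip permutation p = 0.125, adjusted 0.25). Ins1 itself had 107, 222, 481 and 523 RPKM. Ppy, the pancreatic polypeptide gene, reached 0.92 RPKM at most and lay below 1 RPKM (limma, adjusted p = 0.025), a call lost without replicate 1 or 4 (adjusted p = 0.0958 and 0.086).

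**Figure D2:**
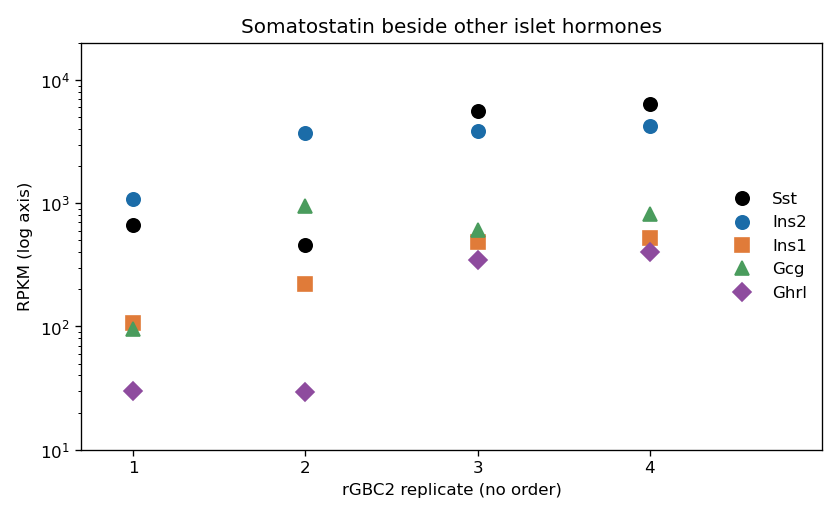
Level in RPKM (log axis) of Sst, Ins2, Ins1, Gcg and Ghrl in each rGBC2 library; replicates have no order. Sst lies above Ins2 in replicates 3 and 4 and below it in replicates 1 and 2, while Ghrl lies below Sst by 15.5- to 22.2-fold in every library.

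The receptor transcripts were far lower in level than those of the hormone, and Sstr1 and Sstr2 made up most of them. The 5 receptors summed to 9.82, 20.2, 52.7 and 54.9 RPKM in replicates 1 to 4, and the ratio of Sst to that sum was 67.6, 22.8, 106 and 117. RPKM is scaled to length, so these levels can be set side by side, within the limits of 1 gene model per symbol.

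Sstr1 (mm9 chr12:59312791-59317023, plus strand), a Gi-coupled receptor paired by sequence with Sstr4, had 0.75, 11, 35.7 and 36.9 RPKM in replicates 1 to 4. Replicate 1 was the lowest by far: Sstr1 gave 7.64% of the receptor sum there, against 54.5%, 67.8% and 67.3% in replicates 2 to 4. The estimate of 37 reads on a transcript of 2014 bases in replicate 1 lies above the floor of 3 reads. Its level lay above 1 RPKM by 2.71 ± 0.785 on the log2(RPKM + 1) scale (moderated SE, n = 4; limma, adjusted p = 0.0183). Without replicate 2 the adjusted p from limma was 0.0634, and with replicates 3 and 4 averaged as 1 library it was 0.0503.

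Only 8 of 4766 genes within 2-fold of the mean of Sstr1 had a larger SD than its 2.08 on the log2(RPKM + 1) scale, and the median SD of those genes was 0.30. Between replicates 1 and 2, Sst and Sstr1 did not run together: Sst was higher in replicate 1 and Sstr1 in replicate 2.

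Sstr2, the receptor targeted by the octapeptide analogues of the clinic and the main alpha-cell receptor in mouse, had 5.96, 8.29, 15.3 and 16.4 RPKM in replicates 1 to 4. It was the steadiest of the 3 genes above 1 RPKM, with an SD of 0.64 on the log2(RPKM + 1) scale, and its mean was 11.5 ± 5.15 RPKM (SD, n = 4). It lay above 1 RPKM by 2.54 ± 0.266 on that scale (moderated SE; limma, adjusted p = 0.000204). Its share of the receptor sum was 60.7% in replicate 1 and 41.1%, 29.1% and 29.9% in replicates 2 to 4.

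The row of Sstr2 (mm9 chr11:113485571-113486680, plus strand) spans 1110 bases, the length of its coding sequence with the stop, so its gene model holds no untranslated region. In GENCODE M21 (GRCm38) the gene overlaps the extent of Slc39a11, a zinc transporter gene on the opposite strand. Whether exons of Slc39a11 meet those of Sstr2 was not examined. Slc39a11 had 59.5, 75.2, 103 and 103 RPKM in replicates 1 to 4. The sources used here do not say that strand was used in counting, and the part of Slc39a11 reads in the Sstr2 value was not tested.

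**Figure D3:**
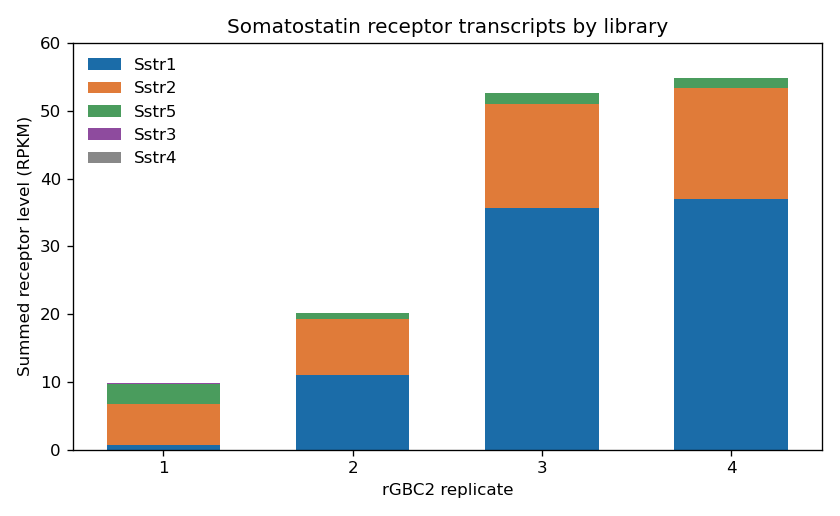
Level in RPKM of the 5 receptors, stacked for each rGBC2 library. The sum lies between 9.82 and 54.9 RPKM, Sstr1 is the largest part in replicates 2 to 4 and Sstr2 in replicate 1, and Sstr3 and Sstr4 are too low to be seen.

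Sstr5 (mm9 chr17:25626820-25634233, minus strand) is a receptor that restrains insulin release in rodent beta cells. It had 2.95, 0.86, 1.61 and 1.51 RPKM in replicates 1 to 4. It was highest where Sstr1 was lowest, and it gave 2.95 of 9.82 RPKM of the receptor sum in replicate 1 and 2.75% to 4.27% in the others. It was not distinguished from 1 RPKM, from which it lay 0.40 ± 0.195 away in log2(RPKM + 1) (moderated SE, n = 4; limma, adjusted p = 0.1). Without replicate 2, its lowest library, the difference was 0.56 and the adjusted p from limma 0.0469.

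Sstr3 (mm9 chr15:78367445-78374775, minus strand), the ciliary receptor of beta cells, had 0.13, 0.02, 0.02 and 0.05 RPKM in replicates 1 to 4. These values correspond to about 13, 2, 2 and 7 reads on a transcript of 4275 bases, so replicates 2 and 3 lie under the floor of 3 reads. It lay below 1 RPKM (limma, adjusted p = 1.29e-06).

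Sstr4 (mm9 chr2:148221113-148222500, plus strand), a receptor best known from brain and lung, had 0.03 RPKM in replicate 1 and was listed at 0 elsewhere. The value in replicate 1 corresponds to 1 read over the 1388 bases of its row, and 3 reads in a library would give 0.0651 to 0.0978 RPKM. It lay below 1 RPKM (limma, adjusted p = 2.29e-07); without replicate 1 it is listed at 0 in every library and only Sstr3 of the 6 genes is called below. At this depth, Sstr4 transcripts under that level were not detectable.

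Shared sequence could mix reads between receptors, and little exact sharing was found among annotated transcripts. Near matches and sequence outside annotated transcripts were not searched. The coding sequences of receptor pairs were identical at 62.5% to 70.4% of aligned bases, highest for Sstr1 with Sstr4 (70.4%) and next for Sstr3 with Sstr5 (69.6%), the known pair and a pair within the trio. Of stretches of 36 bases, 0.142% of those in Sstr3 also occurred in Sstr5 and 0.243% of those in Sstr5 in Sstr3. None of the stretches in the other 4 genes occurred in another gene's transcripts.

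By mean level the order was Sst, Sstr1, Sstr2, Sstr5, Sstr3 and Sstr4. In 13 of the 15 pairs the mean difference within a library exceeded its SD over libraries, and it had the same direction in 4 of 4 libraries in those pairs. The pairs that did not were Sstr1 with Sstr2 and Sstr1 with Sstr5.

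Between neighbours, Sst minus Sstr1 averaged 7.12 ± 1.37 on the log2(RPKM + 1) scale (SD, n = 4). Sstr1 minus Sstr2 averaged 0.17 ± 1.49, with -1.99 in replicate 1 and 0.37, 1.17 and 1.12 in replicates 2 to 4, so their order was not resolved; without replicate 3 the mean was -0.17 and without replicate 4 it was -0.15. Sstr2 minus Sstr5 averaged 2.14 ± 0.91.

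Sstr3 minus Sstr5 averaged -1.32 ± 0.39, with Sstr3 lower in 4 of 4 libraries. Sstr3 minus Sstr4 averaged 0.07 ± 0.05, a difference that rests on a few reads. The exact sign-flip permutation test gave its smallest p of 0.125 for those 13 pairs (0.144 after adjustment over 15), 0.875 for Sstr1 with Sstr2 and 0.25 for Sstr1 with Sstr5 (adjusted 0.875 and 0.268).

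The genes most like each of the 3 in pattern over the 4 libraries were ranked by the root mean square difference of log2(RPKM + 1), centred on each gene's own mean, among 7487 genes with a mean of at least 10 RPKM that were above 0 in every library. For Sst the nearest were Ghrl (0.20), the secreted phospholipase Pla2g2f (0.21), Resp18, an endocrine secretory protein (0.30), the granule protein Chga (0.30) and Vsig2 (0.31), against a median of 1.72 over all candidates. With 4 libraries, of which replicates 3 and 4 were alike, such likeness is a description only.

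Chga stood at 33.1, 23.7, 471 and 470 RPKM in replicates 1 to 4, and Pla2g2f at 9.67, 9.86, 108 and 107 RPKM. Both were thus high in the same libraries as Sst. Resp18 stood at 2.83, 1.22, 18.4 and 22.5 RPKM.

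For Sstr1 the nearest were Igfbpl1 (0.35), Nms, the neuromedin S gene (0.39), albumin (Alb, 0.59) and the crystallins Crybb3 (0.63) and Cryba2 (0.67). Igfbpl1 stood at 5.40, 21.6, 108 and 111 RPKM and Nms at 0.67, 5.03, 16.9 and 21.4 RPKM in replicates 1 to 4, each lowest in replicate 1 as Sstr1 was. For Sstr2 they were the RNA-binding protein Rbpms and the apolipoprotein Apoa2 (0.02 each), the cobalamin carrier Tcn2 (0.04), Hn1 (0.04) and Angptl7 (0.05), against a median of 0.58 over all candidates. The distance between Sst and Sstr1 was 1.19 and that between Sst and Sstr2 1.23, larger than to any gene named here for Sst.

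**Figure D4:**
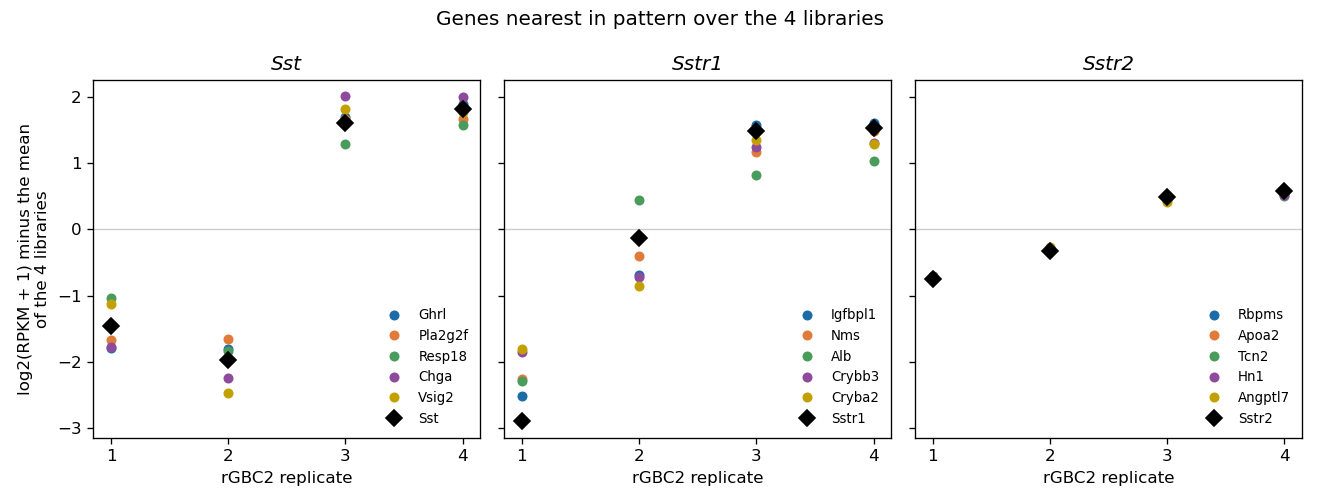
log2(RPKM + 1) minus the gene's mean over the 4 rGBC2 libraries, for Sst, Sstr1 and Sstr2 (black diamonds) and the 5 genes nearest to each in pattern (coloured points). Sst and its nearest genes lie below their mean in replicates 1 and 2 and above it in replicates 3 and 4, Sstr1 lies lowest in replicate 1, and Sstr2 varies less.

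Genes that make, cleave or relay somatostatin were taken from 13 lists with 89 genes, all of which had a row. Of these, 70 lay above 1 RPKM (78.7%, against 65.0% of all genes tested), 13 below (14.6%, against 26.1%) and 6 in neither direction. The lists were chosen with earlier results of these data known and hold the delivered Pdx1 and Pax6. Their shares are thus a description and not a test. The counts of each list below are to be read beside those shares of all genes tested, 65.0% above and 26.1% below. The median over all genes tested was 7.38 RPKM.

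Of 10 enzymes that can take part in cutting prosomatostatin, 8 lay above 1 RPKM and 1 below, and the list had a median of 36 RPKM. The carboxypeptidase Cpe, which trims basic residues, was highest, at 2750, 3670, 4576 and 5140 RPKM in replicates 1 to 4. The convertase Pcsk2 had 161, 104, 623 and 640 RPKM, so it was high in the same libraries as Sst. Nrd1, a convertase that cuts at dibasic sites of somatostatin-28, went the other way, with 59.5, 66.2, 39.4 and 35.5 RPKM. Pcsk5, a convertase, lay below 1 RPKM at 0.32 ± 0.0622 RPKM (SD, n = 4). Pcsk1, which with Pcsk2 cleaves prohormones at dibasic sites, passed in neither direction, at 0.1, 0, 1.95 and 1.67 RPKM (limma, adjusted p = 0.519).

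Of 5 peptidases able to degrade small peptides, 4 lay above 1 RPKM. Ece1, the endothelin-converting enzyme, averaged 405 ± 144 RPKM, Ide, the insulin-degrading enzyme, 24.6 ± 10.6 RPKM, Thop1 14 ± 3.15 RPKM and Nln, neurolysin, 6.07 ± 0.675 RPKM (SD, n = 4). Mme, neprilysin, which is known to cleave somatostatin in brain, lay below it, at 0.46, 0.65, 0.06 and 0.02 RPKM in replicates 1 to 4 (limma, adjusted p = 0.00398). Cort, which encodes cortistatin, the related ligand of the same receptors, had 0.09 RPKM in replicates 1 and 3, was listed at 0 in replicates 2 and 4, and lay below 1 RPKM by the test (limma, adjusted p = 1.27e-06).

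Other delta-cell markers did not all accompany Sst. Of 7, 3 lay above 1 RPKM and 3 below, with a median of 1.48 RPKM. Hhex, a homeobox factor needed for delta cells, had 75.7, 110, 84.8 and 87.3 RPKM in replicates 1 to 4, and its highest library was the one with the lowest Sst. Whether Hhex RNA came from delta-like cells or from cells still like gallbladder was not tested. Rbp4, the retinol carrier, was at 4.76, 1.33, 17.7 and 16.9 RPKM, high where Sst was high. Gpr120, a fatty acid receptor of delta cells also named Ffar4, had 3.14, 0.74, 2.72 and 3.34 RPKM, and its call above 1 RPKM (limma, adjusted p = 0.0422) was lost without replicate 1, 3 or 4 (adjusted p = 0.129, 0.11 and 0.119), which left 2 of 7 markers above.

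Edn3, endothelin 3, with 0, 0.02, 0.01 and 0.04 RPKM in replicates 1 to 4, Lepr, the leptin receptor, with 0.06 ± 0.0216 RPKM, and Crhr2, the urocortin receptor through which beta cells drive delta cells, with 0.227 ± 0.067 RPKM (SD, n = 4), lay below 1 RPKM. Ghsr, the ghrelin receptor of mouse delta cells, passed in neither direction, at 0.79, 3.25, 1.14 and 0.76 RPKM (limma, adjusted p = 0.429). Markers of neurons, another somatostatin source, moved only partly with Sst. The 6 summed to 188, 154, 376 and 372 RPKM in replicates 1 to 4, and 3 of 6 lay above 1 RPKM (5 of 6 without replicate 2). Tubb3 (86.9, 76.8, 197 and 194 RPKM), Syp (33.9, 24.4, 105 and 109 RPKM) and Elavl4 (0.21, 0.27, 1.29 and 1.14 RPKM) were higher in replicates 3 and 4. Nefl varied little (62.3, 51.6, 68.9 and 64.9 RPKM). Snap25 (2.01, 0.45, 1.8 and 1.74 RPKM) and Elavl3 (2.73, 0.78, 2.23 and 1.85 RPKM) were highest in replicate 1. The part of neurons in the Sst level was not tested.

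Regulators known to act at the Sst promoter lay above 1 RPKM in 12 of 13 cases. The list was led by Pdx1 and Pax6, which had been delivered to the cells, so delivered and endogenous transcripts cannot be told apart. Pdx1, which acts at TAAT sites, had 3739, 1948, 3568 and 3465 RPKM in replicates 1 to 4, and Pax6 had 1189, 1403, 2007 and 2052 RPKM.

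Pdx1 was lowest in replicate 2, as Sst was. In replicate 1 Pdx1 was near its level in replicates 3 and 4, and Sst was far below its own level there. A relation of Pdx1 to the Sst level was not tested. Crtc3, a coactivator of the cyclic AMP response factors, averaged 33.2 ± 16 RPKM (SD, n = 4) and was lower in replicates 3 and 4. Isl1, a pan-endocrine factor, passed in neither direction, at 0.43, 0.28, 1.19 and 1.16 RPKM (limma, adjusted p = 0.227).

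The G protein subunits that carry the receptors' signal were present. All 5 inhibitory alpha subunits lay above 1 RPKM, led by Gnai2 with 194 ± 15.6 RPKM and Gnai3 with 67.9 ± 33.4 RPKM (SD, n = 4). Gnai1 had 47.5, 21.1, 22.7 and 20.6 RPKM in replicates 1 to 4. Gnao1, the subunit abundant in neurons and endocrine cells, had 7.14, 2.55, 16.5 and 16 RPKM, and Gnaz averaged 7.68 ± 1.67 RPKM.

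Of 9 adenylyl cyclases, the enzymes that these subunits inhibit, 6 lay above 1 RPKM and 2 below. These counts are near the shares of all genes tested (65.0% and 26.1%). Adcy6 averaged 21.8 ± 2.67 RPKM, Adcy9 13.3 ± 2.87 RPKM and Adcy3, the cyclase of cilia, 12.5 ± 2.63 RPKM (SD, n = 4). Adcy4 (0.035 ± 0.03 RPKM) and Adcy7 (0.765 ± 0.103 RPKM) lay below 1 RPKM, and Adcy1 passed in neither direction (0.767 ± 0.3 RPKM; limma, adjusted p = 0.131). Adcy7 (limma, adjusted p = 0.0345) lost its call with any 1 of the 4 libraries left out (adjusted p = 0.058 to 0.126), which left 1 cyclase below. Adcy5 (adjusted p = 0.019) lost its call above 1 RPKM without replicate 3 or 4 (adjusted p = 0.0599 and 0.0572), which left 5 above.

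Of 4 GIRK channel subunits, the potassium channels that the receptors open through G protein beta-gamma subunits, 1 lay above 1 RPKM. This was Kcnj3, with 4.33 ± 0.689 RPKM (SD, n = 4). Kcnj5 was at 1.46, 0.29, 0.54 and 0.61 RPKM in replicates 1 to 4, a level that limma placed in neither direction (adjusted p = 0.165), although it lay below 1 RPKM without replicate 1 (adjusted p = 0.00621). Kcnj6, with at most 0.04 RPKM, and Kcnj9, with at most 0.06 RPKM, lay below 1 RPKM.

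Of the 7 voltage-gated calcium channel alpha1 subunits listed, 5 lay above 1 RPKM, beside 65.0% of all genes tested. Other kinds of subunit of these channels were not in the list. Cacna1a had 13.3, 1.77, 14.1 and 13 RPKM in replicates 1 to 4. It was lowest in replicate 2, where Sst was also lowest. In replicate 1 Cacna1a was near its level in replicates 3 and 4, which Sst was not. Cacna1h averaged 8.10 ± 3.95 RPKM and Cacna1d, a channel of beta cells, 5.64 ± 2.13 RPKM (SD, n = 4). Cacna1e (0.075 ± 0.0858 RPKM) and Cacna1g (0.545 ± 0.114 RPKM) lay below 1 RPKM.

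The tyrosine phosphatases reported to act downstream of the receptors were above 1 RPKM in 3 of 3 cases: Ptpn11 averaged 62.3 ± 5.89 RPKM, Ptpn6 30.9 ± 9.91 RPKM and Ptprj 28 ± 9.34 RPKM (SD, n = 4). Receptor kinases and arrestins, which switch receptors off and carry them inside, lay above it in 6 of 7 cases. They were led by Adrbk1 with 41.3 ± 10.1 RPKM, Adrbk2 with 31.7 ± 5.09 RPKM and the arrestin Arrb2 with 25.9 ± 4.25 RPKM. Grk4 passed in neither direction (2.01 ± 1.12 RPKM; limma, adjusted p = 0.0756).

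Scaffold proteins reported to bind the receptors' tails or loops lay above 1 RPKM in 7 of 8 cases. Flna, a filamin that binds Sstr2, averaged 51.1 ± 9.52 RPKM, Pick1 37.9 ± 8.24 RPKM and Gopc 19.3 ± 4.48 RPKM (SD, n = 4). Shank1, a postsynaptic scaffold, lay below 1 RPKM at 1.01, 0.52, 0.18 and 0.19 RPKM in replicates 1 to 4 (limma, adjusted p = 0.0197). Without replicate 2, 3 or 4, Shank1 lost its call (adjusted p = 0.0578, 0.0553 and 0.0555). Pdzk1, another scaffold, was above 1 RPKM (adjusted p = 0.014) but not without replicate 3 (adjusted p = 0.0588).

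All 10 genes of ciliary assembly and of Sstr3 delivery to the cilium lay above 1 RPKM, with a median of 11.2 RPKM. Tulp3, an adaptor for ciliary receptors, averaged 20.2 ± 2.32 RPKM, the BBSome subunit Bbs4 15.6 ± 1.55 RPKM and the intraflagellar transport protein Ift88 13.2 ± 0.329 RPKM (SD, n = 4). The cargo receptor Sstr3 itself reached 0.13 RPKM at most, as given above.

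**Figure D5:**
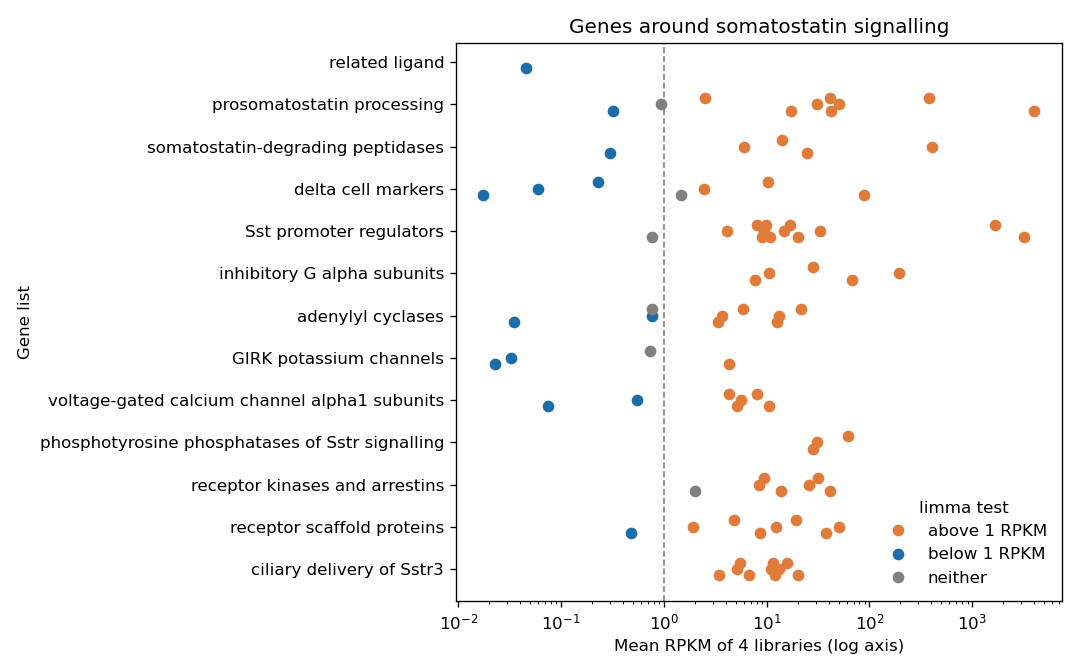
Mean RPKM over the 4 rGBC2 libraries (log axis) of each gene in 13 lists around somatostatin signalling; each point is 1 gene and its colour gives the result of the limma test against 1 RPKM (dashed line). Of 89 genes 70 lie above, 13 below and 6 in neither direction.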

How the data were processed

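The authors deposited 1 table of RPKM values per gene symbol, rounded to 2 decimals, from TruSeq v2 libraries of sorted cells. CASAVA 1.8.2, Bowtie and build mm9 are named per the submitters' processing notes. How reads were counted, on which strand, and what became of multi-mapped reads is not given in the sources used here. Gapdh was at 0.2 RPKM or less in every library, so a value at 0 can be a failed estimate. The table's 6 other per-sample columns match no sample of this series and were not used, so no comparison with other cells was made. Coordinates of table rows are mm9, with starts moved to count from 1 (row lengths of most short olfactory receptor genes are whole codons only if the deposited starts count from 0), and those of sequences GRCm38.

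Depth was estimated from the RPKM steps of low values above 0 among 993 olfactory receptor genes under 1100 bases. There were 33, 28, 14 and 17 such values in replicates 1 to 4. All lay within 0.0051 RPKM of whole reads, a closeness that the fit itself sought. Floors cover counting error only, and read numbers of single genes are approximate. The level test used limma 3.58.1 in R 4.3.3 on log2(RPKM + 1) (moderated variances with a trend, threshold 0.05); differences on this scale understate those of low genes. The 3458 genes at 0 in every library were not tested. The level test and the depth fit were run on simulated data. The simulated libraries of the level test were drawn independently, so they do not cover the likeness of replicates 3 and 4. Differences within libraries used exact sign-flip permutation tests. Sequence work used Biopython 1.88.

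Members and lists were chosen with earlier results of these data known. Of each list the 3 highest genes, up to 3 of the lowest below 1 RPKM, and all genes of short lists are named; genes in neither direction, Adcy5, Pdzk1, Slc39a11 and the motifs were chosen after their values or letters were seen.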

Additional observations from a re-analysis of the deposited data

Results flagged for a closer look

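Of 58 genes examined for a library far from the other 3, 7 were marked, where chance alone marks about 1 group in 20. Among somatostatin and its receptors only Sstr4 was marked, whose 0.03 RPKM in replicate 1 is the worth of 1 read. It was listed at 0 elsewhere, so any value there would have been marked. Ins2 was low in replicate 1 (1091 RPKM) and Pdx1 in replicate 2 (1948 RPKM). Gnai1 (47.5 RPKM) and Arrb2 (32.2 RPKM) were high in replicate 1, Adcy4 was high in replicate 3 (0.08 RPKM), and Cacna1a was low in replicate 2 (1.77 RPKM).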

How the results depend on the processing

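No paired analysis was possible because the series has 1 group. Of the 57 alternative values for the level of the 6 genes against 1 RPKM, 54 kept both direction and call. Sstr1 lost its call without replicate 2 (range without each replicate 2.20 to 3.68 on the log2 scale) and with replicates 3 and 4 averaged as 1 library (2.20). That alternative and those on replicates 1 and 2 or 3 and 4 alone were added after seeing the data. Sstr5 gained one without replicate 2 (range 0.20 to 0.56). Sstr1 minus Sstr2 turned to -0.01 with a pseudocount of 0.1 and to -0.81 in replicates 1 and 2 alone (range without each replicate -0.17 to 0.89). Sst minus Ins2 turned to 0.56 in replicates 3 and 4 alone (range -1.06 to 0.14). With a mean of at least 0.1 RPKM required, the counts below 1 RPKM became 1889 of all genes (7777 with no filter), 0 of the 6 genes, 0 for Cort, 1 of the delta-cell markers, 0 of the adenylyl cyclases, 0 of the GIRK subunits and 1 of the calcium channel subunits. The filter takes the genes of the lists that are lost out of the test, except Adcy7, which was tested and lost its call (adjusted p = 0.0983); the cause was not tested. Without each replicate the count below was 1 to 2 of the 6 genes, since Sstr4 is at 0 without replicate 1, 1 of the adenylyl cyclases (1 also with a pseudocount of 0.1 or replicates 3 and 4 as 1 library), 2 to 3 of the GIRK subunits and 0 to 1 of the scaffold proteins (0 with replicates 3 and 4 as 1 library). Among the 89 list genes, 5 lost a call in some alternative while still tested: Gpr120 (also lost with no filter, no trend, and replicates 3 and 4 as 1 library, leaving 2 delta-cell markers above), Adcy5 (5 cyclases above with replicates 3 and 4 as 1 library), Adcy7, Shank1 and Pdzk1. Ppy lost its call with a pseudocount of 0.1 (adjusted p = 0.0507). Kcnj5 gained one. Depth limits Sstr3 and Sstr4, which rest on a few reads.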
